A study of Homo sapiens with 4 samples.

Results

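The genes that encode the proteins of the mitochondrial ribosome were examined in Kasumi-1 cells, an established acute myeloid leukemia line, after knockdown of ANP32B. The members were taken as the rows whose gene symbol is MRPL or MRPS followed by a number and, in some cases, a letter from A to C, with at least 1 TPM in at least 2 of the 4 samples. All 78 genes with such a symbol met the level rule, 49 of them MRPL genes and 29 MRPS genes, out of 16817 genes tested and 18567 rows in the table. RNA was sequenced from 2 samples called NC and 2 samples called sh-ANP32B, in which a short hairpin RNA lowered ANP32B, a histone chaperone of the acidic nuclear phosphoprotein family. According to the labels the NC samples carried no hairpin, but a control hairpin is described in the methods, and this was not settled. The hairpin used, out of the 3 that the study describes, is not given by the labels, and neither is the time after infection. The methods say in general that experiments were repeated independently, but nothing ties the 2 samples of a group to separate cultures, so the p-values measure the spread between these samples, which may be technical. The values are TPM, a transcript abundance, which are scaled to gene length and to the total of each sample, so that levels can be compared between genes and a change in abundant transcripts moves the share of all others. Sequencing depth was unknown, and in a bulk measurement a lower value in every cell and fewer cells with the transcript cannot be told apart.

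The mitochondrial ribosome translates the mRNAs of the mitochondrial genome, all of which encode subunits of the respiratory chain and the ATP synthase. Its large subunit forms peptide bonds and holds the exit tunnel, and its small subunit reads the mRNA. Its rRNAs come from the mitochondrial genome, whereas every protein is encoded in the nucleus, made in the cytosol and imported. Some of these proteins have counterparts in bacterial ribosomes, and others occur only in mitochondria.

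ANP32B, the targeted gene, was at 384 and 392 TPM in the NC samples and at 51.8 and 41.2 TPM in the sh-ANP32B samples, giving a log2 fold change of -3.04 (SE 0.15, adjusted p = 0.0052 by limma). Of the markers of the cell line, RUNX1T1, which is part of its fusion oncogene, was between 15.6 and 31.2 TPM, and CD33, KIT and PTPRC were above 1 TPM in every sample, while CD34 and MPO were not analysed here. The 4 markers together summed to 201 and 193 TPM in NC and to 307 and 246 TPM in sh-ANP32B. Of the markers of other cell types, CD79A was at 1.29 and 1.15 TPM in NC, and at 0 and 2.17 TPM in sh-ANP32B. The mitochondrial genome contributed 12.9% and 13.1% of the TPM in NC, but 11.4% and 8.43% in sh-ANP32B. Across 15427 genes, replicate 1 minus replicate 2 on the log2 scale was related to transcript GC content with a Spearman rho of -0.58 in sh-ANP32B and of 0.21 in NC.

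Most genes of the mitochondrial ribosome had lower values in sh-ANP32B, down to 56.4% of NC for MRPL24, and only MRPL41 passed the test, in the opposite direction. The log2 fold change of sh-ANP32B against NC was negative for 62 of the 78 members, compared with 42.1% of all genes tested. The median over the members was -0.22, with quartiles of -0.40 and -0.06, and the median over all genes tested was 0.08. At an adjusted p under 0.05 by limma, 0 members were called lower, against 1.18% of all genes tested, and 1 member was called higher, against 2.14%. Without adjustment, p was under 0.05 for 17 lower members, against 8.72% of all genes tested, and for 1 higher member, against 15.0%. The study called genes with DESeq2 at a p under 0.05 and a change beyond 0.5 on the log scale, and does not say whether p was adjusted. That criterion was applied here to the limma fit with p taken as unadjusted. By it 7 members were lower, against 6.55% of all genes tested, and 1 was higher, against 12.1%. Both sh-ANP32B values were below both NC values for 41 members, against 21.4% of all genes tested, and above them for 4 members, against 33.2%. The number of members with a negative fold change was 68 when the samples were scaled by median ratios, where the median over all genes was 0.00, and 66 when the values were rescaled without the transcripts of the mitochondrial genome. Leaving out a sample leaves 1 sample in its group, so that the spread comes from the other group alone and only effect sizes are given. The median over the members was -0.20 without sh-ANP32B replicate 1 and -0.29 without sh-ANP32B replicate 2, against 0.07 and 0.10 over all genes. In these fits the fold change was negative for 58 and 67 members. Without NC replicate 1 and without NC replicate 2 the medians were -0.26 and -0.21, with 62 and 63 members negative.

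**Figure D1:**
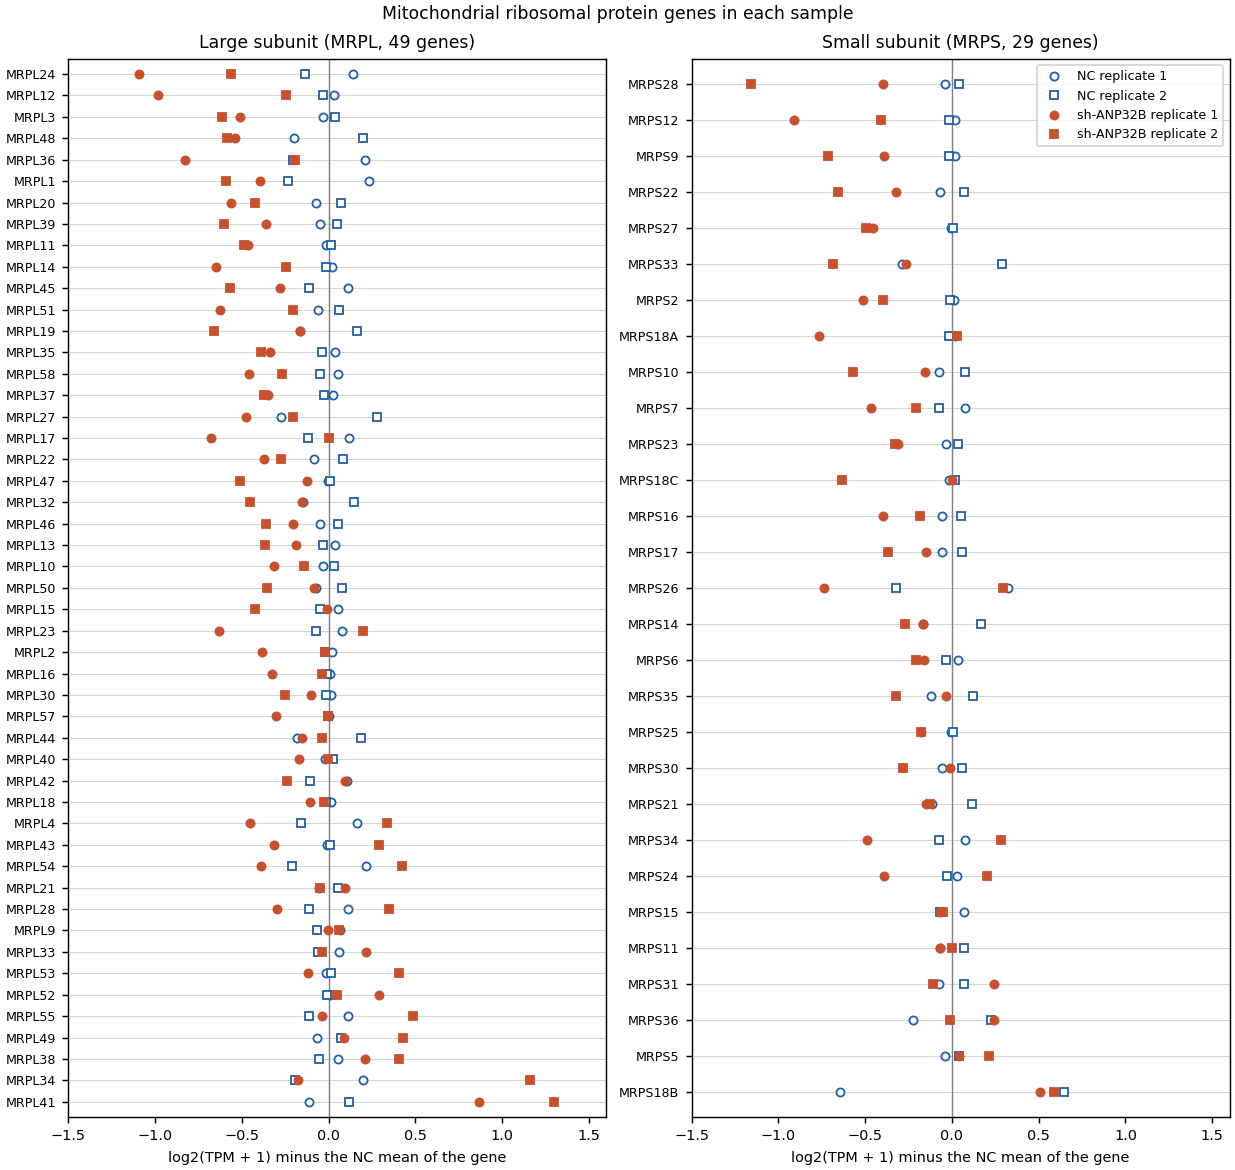
Each row is a gene of the mitochondrial ribosome and each point a sample, plotted as log2(TPM + 1) minus the mean of the 2 NC samples, with MRPL genes on the left and MRPS genes on the right, each ordered by fold change. Filled sh-ANP32B points lie left of the NC mean for 67 genes in replicate 1 and for 58 genes in replicate 2, and MRPL41 is the gene farthest to the right.

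The shift was seen in both sh-ANP32B samples when each was set against the NC mean. In replicate 1, 67 of 78 members were below the NC mean, with a median difference of -0.29 on the log2 scale, against 0.10 for all genes. In replicate 2, 58 members were below it, with a median of -0.20, against 0.07 for all genes. A difference of more than 0.5 below the NC mean was found for 14 members in each of these samples. The members summed to 4356 and 4347 TPM in NC, and to 3625 and 4075 TPM in sh-ANP32B, which is 0.436%, 0.435%, 0.363% and 0.408% of the values of each sample. Both sums in sh-ANP32B were below both sums in NC, and the 2 sh-ANP32B samples lay further apart than the 2 NC samples.

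**Figure D2:**
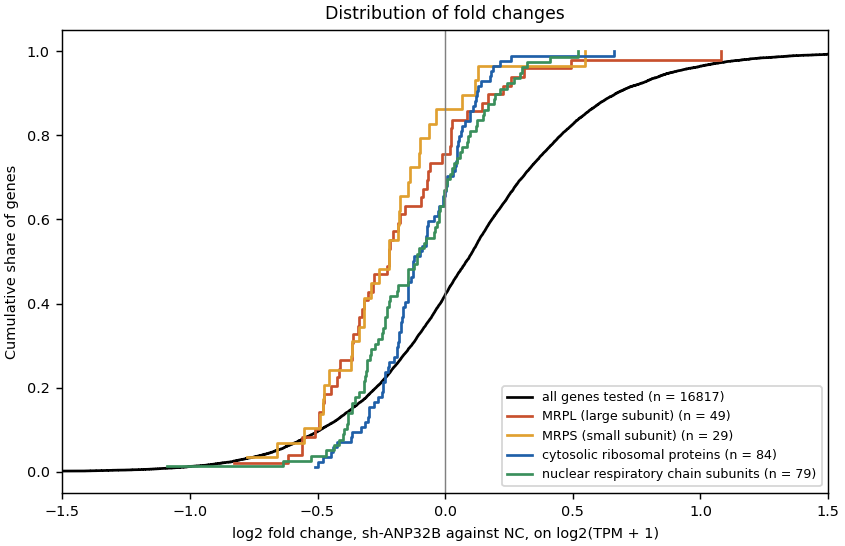
Cumulative share of genes (vertical axis) by log2 fold change of sh-ANP32B against NC on the log2(TPM + 1) scale (horizontal axis), for all genes tested, MRPL genes, MRPS genes, cytosolic ribosomal protein genes and nuclear genes of the respiratory chain. At a fold change of 0, 37 of 49 MRPL and 25 of 29 MRPS genes lie to the left, against 42.1% of all genes.

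The large and the small subunit were then set side by side. The median log2 fold change was -0.22 over the 49 MRPL genes and -0.22 over the 29 MRPS genes. It was negative for 37 MRPL genes and 25 MRPS genes. Groups did not overlap for 27 MRPL genes that were lower and 4 that were higher, and for 14 MRPS genes that were lower and 0 that were higher. Over all genes tested, the shares were 21.4% lower and 33.2% higher. The criterion of the study was passed by 4 MRPL genes in the lower direction and 1 in the higher, and by 3 MRPS genes in the lower direction. Over all genes tested, 6.55% passed it in the lower direction and 12.1% in the higher. Symbols do not always give the place of a protein, since the products of MRPS30 (log2 fold change -0.15) and MRPS18A (-0.37) sit in the large subunit. With these 2 moved, and MRPS36 left out because its product is now assigned to the alpha-ketoglutarate dehydrogenase complex, the medians were -0.22 over 51 large-subunit genes and -0.24 over 26 small-subunit genes. Without sh-ANP32B replicate 2, the MRPL median minus the MRPS median was -0.13, and without the other samples in turn it was between -0.019 and 0.058.

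In summed level, the MRPL genes reached 2917 and 2861 TPM in NC, against 2401 and 2783 TPM in sh-ANP32B. The MRPS genes reached 1439 and 1486 TPM in NC, against 1223 and 1292 TPM in sh-ANP32B. Both sums were lower in each sh-ANP32B sample than in either NC sample. The ratio of the MRPL to the MRPS sum was 2.03 and 1.93 in NC, and 1.96 and 2.15 in sh-ANP32B, so that the groups overlapped and no difference between the subunits went beyond the spread between replicates.

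**Figure D3:**
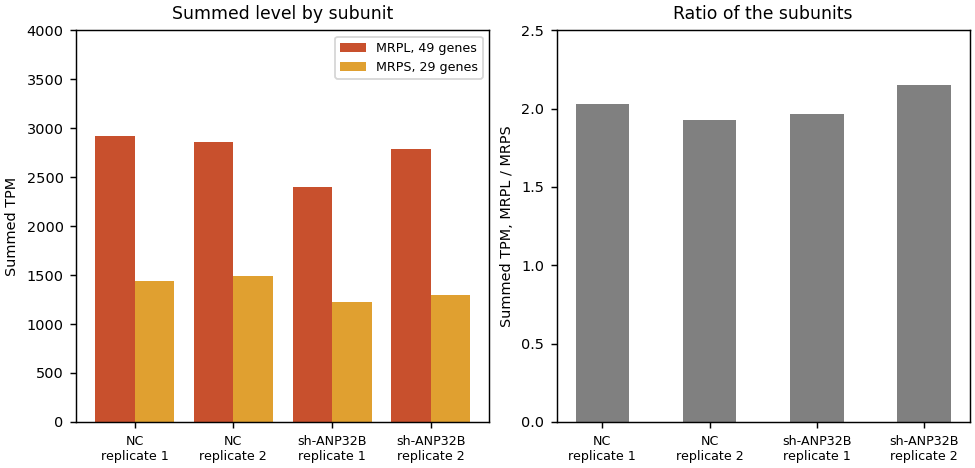
Summed TPM of the MRPL and MRPS genes in each sample (left) and the ratio of the 2 sums (right), with 1 bar for each sample and no error bars. The sums are lowest in sh-ANP32B replicate 1, at 2401 and 1223 TPM, and the ratio runs from 1.93 to 2.15 with the groups overlapping.

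Members were also described separately in a class with a bacterial counterpart and a class listed as specific to mitochondria. MRPS18A and MRPS18B, although paralogs of a bacterial protein, were counted in the second class, and MRPL55 and MRPS36 were in neither. Values with these genes placed otherwise are not given here. Of the 45 members with a bacterial counterpart, 39 had a negative fold change, the median was -0.29, and both sh-ANP32B values lay below both NC values for 28 and above them for 0. Of the 31 members in the class listed as specific to mitochondria, 23 had a negative fold change, the median was -0.18, and the corresponding counts were 13 and 4. Over all genes tested, 21.4% were lower without overlap and 33.2% were higher without overlap. The 4 that did not overlap in the higher direction were MRPL41, MRPL38, MRPL49 and MRPL52. No test of the difference between these classes was made.

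MRPL41, a protein found only in mitochondria that lies on the large subunit and has also been described as a binding partner of BCL2, was the member that rose. The gene (ENSG00000182154) spans positions 137551879 to 137552555 of chromosome 9 (hg38, plus strand). It was at 33.8 and 39.8 TPM in NC, and at 67.7 and 91.7 TPM in sh-ANP32B. Both sh-ANP32B samples were above both NC samples, and the lower of them exceeded the higher NC value by more than the NC samples differed. The mean was 36.8 ± 4.25 TPM (SD, n = 2) in NC and 79.7 ± 16.9 TPM in sh-ANP32B, which is 216% of NC, and the log2 fold change was 1.08 (SE 0.19, adjusted p = 0.044). The adjusted p was 0.0505 with scaling by median ratios and 0.121 without the abundance trend in limma, so the call was lost in these. Its log2 fold change was between 0.86 and 1.30 when any 1 of the 4 samples was left out. MRPL41 also had the highest transcript GC content of the members, at 66.7%.

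The nearest tested gene to MRPL41 was PNPLA7, a lysophospholipase gene on the minus strand, whose start lies 1477 bases from that of MRPL41. The genes around MRPL41 were looked at after its value was seen. PNPLA7 was at 1.33 and 1.77 TPM in NC and at 5.24 and 6.40 TPM in sh-ANP32B, with no overlap between groups, and it rose with a log2 fold change of 1.42 (SE 0.27, adjusted p = 0.047). Its call was lost with scaling by median ratios (adjusted p = 0.0513), with a pseudocount of 0.1 (0.0521) and without the abundance trend (0.114). When any 1 of the 4 samples was left out, its log2 fold change was between 1.30 and 1.54. The other 6 tested genes that overlap the 100 kb on either side of MRPL41 had log2 fold changes between -0.30 (ZMYND19) and 0.24 (ARRDC1), and none of them was called.

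**Figure D4:**
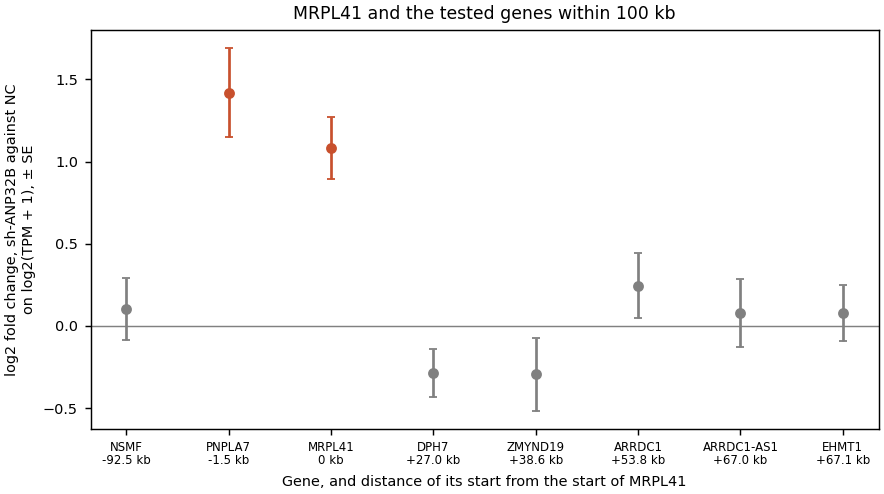
Log2 fold change of sh-ANP32B against NC (vertical axis, bars are the SE of the fit) for MRPL41 and the tested genes within 100 kb, in order of the distance of their starts from the start of MRPL41. The colored points, PNPLA7 at 1.42 and MRPL41 at 1.08, are the genes with an adjusted p under 0.05, and the grey points lie between -0.30 and 0.24.

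MRPL24, a large-subunit protein near the opening of the exit tunnel, had the lowest fold change of the members. It was at 75.0 and 61.7 TPM in NC and at 31.3 and 45.8 TPM in sh-ANP32B. The groups did not overlap, and sh-ANP32B replicate 1 was the lowest sample. Its log2 fold change was -0.83 (SE 0.21, adjusted p = 0.082), with a 95% interval from -1.34 to -0.32 for the single gene. MRPL12, which is part of the stalk that recruits translation factors and also binds the mitochondrial RNA polymerase, was at 92.0 and 88.1 TPM in NC and at 45.0 and 75.8 TPM in sh-ANP32B (log2 fold change -0.61, SE 0.24, adjusted p = 0.19). Most of its difference came from sh-ANP32B replicate 1. MRPL3, a core protein of the large subunit, was at 92.7 and 97.4 TPM in NC and at 66.4 and 61.8 TPM in sh-ANP32B, so that both replicates lay close together in each group (log2 fold change -0.56, SE 0.13, adjusted p = 0.070). MRPL48, of the central protuberance, was at 29.5 and 39.2 TPM in NC and at 23.1 and 22.3 TPM in sh-ANP32B (log2 fold change -0.56). MRPL36, a small protein with a bacterial counterpart, was at 41.9 and 31.1 TPM in NC and at 19.9 and 31.5 TPM in sh-ANP32B. It was the only one of these 5 genes whose groups overlapped (log2 fold change -0.51).

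The lowest fold changes of the small subunit belonged to MRPS28, MRPS12 and MRPS9. MRPS28 was at 31.2 and 32.9 TPM in NC and at 24.1 and 13.8 TPM in sh-ANP32B (log2 fold change -0.78, SE 0.26, adjusted p = 0.14). MRPS12, a protein of the decoding centre, was at 46.0 and 44.9 TPM in NC and at 23.7 and 34.0 TPM in sh-ANP32B (log2 fold change -0.66, SE 0.20, adjusted p = 0.11). The groups did not overlap for either gene, and the lowest sample was replicate 2 for MRPS28 and replicate 1 for MRPS12. MRPS9, a protein of the small-subunit head, was at 42.7 and 41.6 TPM in NC and at 31.8 and 25.3 TPM in sh-ANP32B (log2 fold change -0.55, SE 0.17, adjusted p = 0.12), again without overlap.

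The promoters of the highest member and of the lowest member of each subunit, with MRPS12 in place of MRPS28, are shown because they stand at the ends of the range. The sequences are from RefSeq (GRCh38.p14), which gave a window of 300 bases, 250 before and 50 after the start, for 69 of the 78 members. For genes with several starts, the one listed first was used. The windows are chr9:137551629-137551928 on the plus strand for MRPL41, chr1:156741039-156741338 on the minus strand for MRPL24 and chr19:38930694-38930993 on the plus strand for MRPS12. Capitals mark 6 motifs on either strand. The motif of the respiratory factor NRF1 was searched as CGCANGCG. For ETS factors, among them GABPA, the letters were CCGGAAG. For the factor YY1 they were AAGATGGC. The E-box, a site for MYC and other factors, was searched as CACGTG. The box bound by the factor NF-Y was searched as CCAAT. The GC box of SP factors was searched as GGGCGG.
MRPL41: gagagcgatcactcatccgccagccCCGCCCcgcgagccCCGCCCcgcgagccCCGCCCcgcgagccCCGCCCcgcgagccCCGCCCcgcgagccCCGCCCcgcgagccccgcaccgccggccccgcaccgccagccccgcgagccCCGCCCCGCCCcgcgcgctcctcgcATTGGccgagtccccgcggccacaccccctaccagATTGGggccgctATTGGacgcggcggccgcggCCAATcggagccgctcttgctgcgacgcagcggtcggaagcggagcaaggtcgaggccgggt
MRPL24: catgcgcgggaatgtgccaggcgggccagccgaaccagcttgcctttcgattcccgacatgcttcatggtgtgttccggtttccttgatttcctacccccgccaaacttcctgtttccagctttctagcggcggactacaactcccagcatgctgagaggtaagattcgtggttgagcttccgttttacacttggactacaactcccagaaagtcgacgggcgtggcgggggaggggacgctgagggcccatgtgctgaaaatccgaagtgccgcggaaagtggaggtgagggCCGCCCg
MRPS12: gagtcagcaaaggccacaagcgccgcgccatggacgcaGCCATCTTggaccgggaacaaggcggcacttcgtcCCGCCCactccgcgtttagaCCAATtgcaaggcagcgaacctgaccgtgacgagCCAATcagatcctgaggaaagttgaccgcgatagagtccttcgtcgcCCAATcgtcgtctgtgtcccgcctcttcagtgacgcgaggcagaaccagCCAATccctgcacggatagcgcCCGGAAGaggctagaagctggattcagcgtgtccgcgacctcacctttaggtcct

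The MRPL41 window had a GC content of 80.7% and held 8 GC boxes, some of them overlapping within a repeated stretch, and 4 CCAAT boxes. The MRPL24 window held 1 GC box and none of the other 5 motifs. The MRPS12 window held 4 CCAAT boxes and 1 match each to the ETS, YY1 and GC box motifs.

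Across the 69 members with a window, the ETS motif was present in 29 (42.0%), against 20.1% of 9959 promoters of genes tested and 10.7% of 27305 promoters in all. The YY1 motif was present in 20 (29.0%), against 5.63% of the promoters of genes tested and 3.03% of all promoters. Its share was 28.6% among MRPL genes and 29.6% among MRPS genes. The NRF1 motif was found in 18.8% of the members and 19.9% of the promoters of genes tested, the E-box in 8.7% and 10.7%, the CCAAT box in 29.0% and 36.5%, and the GC box in 60.9% and 69.6%. The median log2 fold change was -0.32 over the 20 members with the YY1 motif and -0.18 over the 49 without it. For the ETS motif it was -0.29 over 29 members and -0.22 over 40, and for the NRF1 motif -0.36 over 13 and -0.19 over 56. For the E-box the medians were -0.34 over 6 members with it and -0.22 over 63 without, and for the CCAAT box -0.24 over 20 and -0.22 over 49. The GC box went the other way, with -0.22 over 42 members with it and -0.32 over 27 without. These matches are descriptions of the letters in the windows, and no test was made on them.

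Above NC, MRPL38 was at 70.7 and 65.5 TPM in NC and at 79.0 and 90.4 TPM in sh-ANP32B (log2 fold change 0.31, adjusted p = 0.25). MRPL49 was at 42.9 and 47.4 TPM in NC and at 47.9 and 61.1 TPM in sh-ANP32B (log2 fold change 0.26). The groups did not overlap for either gene, although they nearly touched for MRPL49, and neither passed the test. MRPL34, a large-subunit protein with a bacterial counterpart, was at 51.0 and 38.6 TPM in NC and at 39.2 and 100.4 TPM in sh-ANP32B, so that its fold change of 0.49 came from replicate 2 alone. MRPL55, MRPL52 and MRPL53 had log2 fold changes of 0.22, 0.17 and 0.14, with adjusted p of 0.54, 0.55 and 0.72.

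MRPS18A, MRPS18B and MRPS18C are 3 paralogs of a single bacterial protein, and they did not share a direction. MRPS18B was at 6.34 and 17.0 TPM in NC and at 15.4 and 16.3 TPM in sh-ANP32B, and its fold change of 0.55 rested on NC replicate 1, since it was -0.10 without that sample. MRPS18A was at 43.4 and 42.5 TPM in NC and at 24.9 and 43.9 TPM in sh-ANP32B (log2 fold change -0.37). MRPS18C was at 22.6 and 23.2 TPM in NC and at 22.9 and 14.4 TPM in sh-ANP32B (log2 fold change -0.32). The groups overlapped for all 3 genes, and the sample that stood apart was a different one for each.

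By level, MRPL37 was the most abundant member, at 263 and 254 TPM in NC and at 202 and 199 TPM in sh-ANP32B (log2 fold change -0.36, SE 0.12, adjusted p = 0.13). Its 2 samples in each group lay close together and the groups did not overlap. MRPL9, MRPL18, MRPS24 and MRPL55 followed in mean level. MRPL9 was at 152 and 138 TPM in NC and at 144 and 151 TPM in sh-ANP32B (log2 fold change 0.03), and MRPL18, which also takes part in import of 5S rRNA, was at 135 and 132 TPM in NC and at 124 and 131 TPM in sh-ANP32B (log2 fold change -0.07). MRPS24 was at 130 and 125 TPM in NC, and at 96.7 and 146 TPM in sh-ANP32B, on either side of both NC samples. The value of MRPL9 was -0.067 with scaling by median ratios. The lowest members were MRPS23, from 8.05 to 10.6 TPM, MRPL50, from 11.0 to 15.2 TPM, and MRPL45, from 9.43 to 15.7 TPM, with log2 fold changes of -0.32, -0.22 and -0.42. The level of a member and its fold change were related with an r of 0.10 (Pearson) and a rho of 0.12 (Spearman) over the 78 genes, which share their 4 libraries.

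Proteins of known position were grouped after the values had been seen, so the following counts are descriptions. The stalk proteins MRPL10, MRPL11 and MRPL12 had fold changes of -0.23, -0.48 and -0.61, and all 3 had both sh-ANP32B values below both NC values. The same was true of 41 of the 78 members and of 21.4% of all genes tested. The 6 proteins around the exit tunnel, MRPL17, MRPL22, MRPL23, MRPL24, MRPL45 and MRPL47, all had negative fold changes, with a median of -0.33. The 7 proteins listed for the central protuberance were MRPL18, MRPL27, MRPL38, MRPL40, MRPL46, MRPL48 and MRPL58. Among these 7, 6 had negative fold changes, the exception was MRPL38, and the median of the 7 was -0.28. The list may not hold every protein of this region. MRPL52 and MRPL55, with fold changes of 0.17 and 0.22, were not in it. The 4 small-subunit platform proteins MRPS6, MRPS11, MRPS15 and MRPS18C had a median of -0.12.

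The 2 sh-ANP32B samples differed from each other in a way that followed GC content within the members as well. Over the 78 members, the log2 difference of replicate 2 minus replicate 1 was higher at higher transcript GC content in sh-ANP32B (Pearson r 0.78, Spearman rho 0.80), whereas in NC the relation was weaker and ran the other way (r -0.37, rho -0.43). The fold change itself was related to GC content with an r of 0.26 and a rho of 0.18. These genes share their libraries, so the values are descriptions. Of the 45 members with a GC content under 50%, 40 had a negative fold change, with a median of -0.28, and of the 33 members at or above 50%, 22 did, with a median of -0.19. The median difference between the sh-ANP32B replicates was -0.18 in the first of these sets and 0.40 in the second. When the log values were corrected for GC content in each sample, 14 members were called lower, against 6.59% of 15427 genes, and MRPL41 was called higher, against 11.2%, at a log2 fold change of 0.89 (adjusted p = 0.011). The 14 members were MRPL3, MRPL11, MRPL12, MRPL14, MRPL20, MRPL24, MRPL36, MRPL37, MRPL39, MRPS2, MRPS9, MRPS12, MRPS22 and MRPS27.

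**Figure D5:**
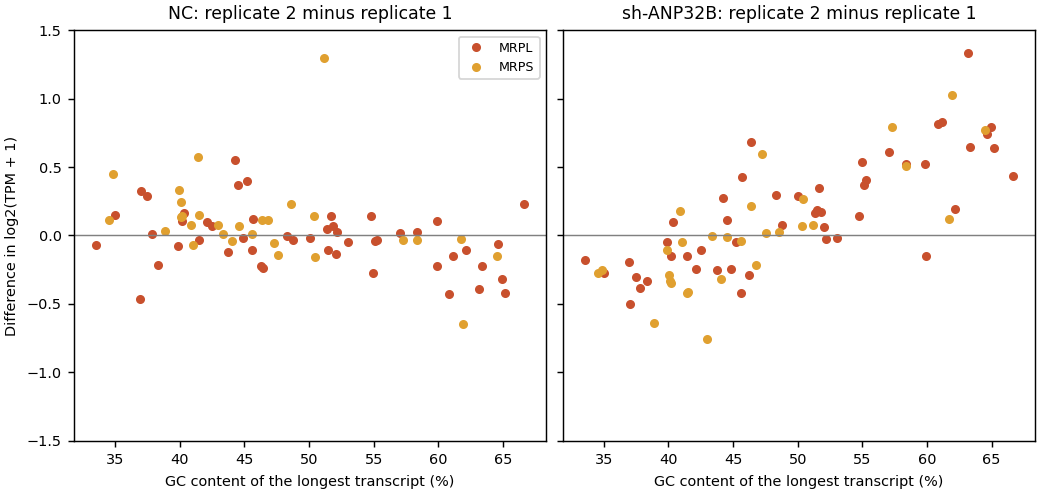
Difference in log2(TPM + 1) between the replicates of NC (left) and of sh-ANP32B (right) against the GC content of the longest transcript of each of the 78 genes, with MRPL and MRPS genes in separate colors. In sh-ANP32B the points rise from below 0 at low GC content to above 0 at high GC content (r 0.78), and in NC they fall slightly (r -0.37).

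Among the members with the largest differences between replicates were MRPS26, MRPL23 and MRPL54, with a GC content of 61.9%, 61.2% and 60.9%. MRPS26 was at 36.6 and 23.1 TPM in NC and at 17.1 and 35.9 TPM in sh-ANP32B, and its fold change was -0.22 on the log2 scale. MRPL23 was at 90.5 and 81.4 TPM in NC and at 55.1 and 98.8 TPM in sh-ANP32B (log2 fold change -0.21). MRPL54 was at 22.7 and 16.6 TPM in NC and at 14.6 and 26.4 TPM in sh-ANP32B (log2 fold change 0.02, and -0.072 with scaling by median ratios). In these 3 genes, the sh-ANP32B replicates lay on opposite sides of the NC mean.

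Of the 78 members, 41 share exon bases with another annotated gene, and whether reads were counted by strand is not given in the sources used here, so reads from such pairs may not be told apart. The median fold change was -0.22 over these 41 and -0.22 over the other 37. Looked at after the values were seen, 29 members had a tested gene on the opposite strand whose start lay within 1000 bases. Of these partners, 16 had a negative fold change, against 42.1% of all genes tested. Among them 2 were called lower, against 1.18% of all genes tested, and among the other partners 2 were called higher, against 2.14%. MRPL43 was at 98.0 and 99.0 TPM in NC and at 78.8 and 121 TPM in sh-ANP32B (log2 fold change -0.01), while its partner TWNK, the helicase of mitochondrial DNA replication, fell from 26.6 and 23.9 TPM to 12.0 and 12.8 TPM (log2 fold change -0.97, adjusted p = 0.044). MRPS34 was at 85.5 and 76.8 TPM in NC and at 57.5 and 98.6 TPM in sh-ANP32B, while its partner EME2, a subunit of a DNA structure-specific endonuclease, rose from 13.6 and 15.9 TPM to 28.4 and 35.7 TPM (log2 fold change 1.07, adjusted p = 0.044). The other called partners were NCAPD2 beside MRPL51, at -0.66, and APBA3 beside MRPL54, at 0.86. Without the abundance trend these 4 calls were lost, with adjusted p of 0.114 for TWNK, 0.116 for EME2, 0.134 for NCAPD2 and 0.124 for APBA3. EME2 and APBA3 also lost theirs with scaling by median ratios, at 0.0505 and 0.0645. The fold changes of these 4 genes kept their sign when any 1 sample was left out. MRPL46 and MRPS11 are each other's partner, so this pair was counted from both sides, and both genes are among the 16 negative partners. Counted in this way, the fold changes of the 29 members and their partners were related with an r of 0.13 and a rho of 0.17.

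Mitochondrial ribosomal proteins that carry other symbols were close to NC. DAP3, a GTP-binding protein of the small subunit, was at 185 and 180 TPM in NC and at 174 and 150 TPM in sh-ANP32B (log2 fold change -0.18). PTCD3, CHCHD1, GADD45GIP1 and AURKAIP1 had log2 fold changes of -0.11, 0.03, 0.06 and 0.10, and 0 of the 5 passed the limma test or had an unadjusted p under 0.05.

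Of 31 genes for assembly of the mitochondrial ribosome and modification of its rRNA, 2 fell and 0 rose, and the median was -0.23. Over all genes tested, 1.18% were called lower and 2.14% higher. ERAL1, a chaperone of the small-subunit rRNA, was at 74.3 and 77.9 TPM in NC and at 38.8 and 36.0 TPM in sh-ANP32B (log2 fold change -1.0, SE 0.14, adjusted p = 0.032). MTG1, a GTPase of large-subunit assembly, was at 53.7 and 57.0 TPM in NC and at 31.6 and 31.4 TPM in sh-ANP32B (log2 fold change -0.79, SE 0.14, adjusted p = 0.044). The groups did not overlap for either gene, and the 2 sh-ANP32B samples were close to each other. DDX28, a helicase of the large subunit, had a fold change of -0.89 with an adjusted p of 0.054, and at the other end GTPBP6 and YBEY were at 0.25 and 0.27.

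Of 18 genes for mitochondrial translation factors and related proteins, 1 fell and 0 rose, with a median of -0.28. The shares over all genes tested were 1.18% called lower and 2.14% called higher. TUFM, the elongation factor that brings aminoacyl-tRNA to the ribosome, was at 229 and 231 TPM in NC and at 137 and 151 TPM in sh-ANP32B (log2 fold change -0.67, SE 0.12, adjusted p = 0.045), without overlap. SLIRP, which stabilises mitochondrial mRNAs, was at -0.70 with an adjusted p of 0.11, and OXA1L, which inserts new proteins into the inner membrane, and MTRES1 were at 0.15 and 0.20. The calls of ERAL1, MTG1 and TUFM were lost without the abundance trend, where the adjusted p were 0.114, 0.12 and 0.138. When any 1 sample was left out, the log2 fold change of ERAL1 was between -1.06 and -0.95. In the same fits that of MTG1 was between -0.835 and -0.75, and that of TUFM between -0.75 and -0.60.

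Of 12 genes for expression of mitochondrial DNA, 0 were called by limma, and the median was -0.29. At an unadjusted limma p under 0.05, 2 were lower, against 8.72% of all genes tested. PNPT1 and TRMT10C were lowest at -0.49 and -0.48, and POLRMT and HSD17B10 were highest at 0.21 and 0.47. Of 8 tested regulators of nuclear genes for mitochondrial proteins, 1 fell, against 1.18% of all genes tested. MYC, a transcription factor that binds the E-box, was at 131 and 144 TPM in NC and at 56.7 and 63.2 TPM in sh-ANP32B (log2 fold change -1.18, SE 0.14, adjusted p = 0.026 by limma). Its fold change was between -1.259 and -1.105 when any 1 of the 4 samples was left out. The call of MYC was lost without the abundance trend in limma, with an adjusted p of 0.114. PPRC1, a coactivator of the PGC-1 family, was at -0.77 with an adjusted p of 0.052, and GABPA and YY1 were at 0.15 and 0.24.

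The rRNAs of the mitochondrial ribosome did not pass the test. MT-RNR1, the rRNA of the small subunit, was at 1667 and 1828 TPM in NC and at 1765 and 1249 TPM in sh-ANP32B (log2 fold change -0.23). MT-RNR2, the rRNA of the large subunit, was at 8580 and 8778 TPM in NC and at 9621 and 7380 TPM in sh-ANP32B (log2 fold change -0.04). For both, the sh-ANP32B replicates differed by more than the groups did. The 13 mRNAs of the mitochondrial genome all had negative fold changes, with a median of -0.50, and 0 were called by limma. An unadjusted limma p under 0.05 was found for 7 of them, against 8.72% of all genes tested in the lower direction. The lowest were MT-ND1 and MT-ND4L, at -0.75 and -0.71, and the highest were MT-CO1 and MT-ND6, at -0.30 and -0.048.

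For comparison, 84 genes of cytosolic ribosomal proteins had a median log2 fold change of -0.12, with 56 negative and 0 called by limma. At an unadjusted limma p under 0.05 there were 8 lower and 1 higher, against 8.72% and 15.0% of all genes tested. RPS27 and RPL27A were lowest, at -0.51 and -0.50, and RPL35A and RPS27L were highest, at 0.26 and 0.66. Of 79 nuclear genes of the respiratory chain, 53 were negative, the median was -0.11, and 1 was called lower, against 1.18% of all genes tested. The called gene was UQCR11, a subunit of complex III, at 60.9 and 63.2 TPM in NC and at 29.8 and 27.4 TPM in sh-ANP32B (log2 fold change -1.09, SE 0.14, adjusted p = 0.030). Its call was lost without the abundance trend (adjusted p = 0.114), and its fold change was between -1.148 and -1.035 when any 1 of the 4 samples was left out. ATP5MC1 came next at -0.64, and COX8C and ATP5F1A were highest at 0.41 and 0.52. The median of the mitochondrial ribosomal protein genes was below both. No test of the difference between these lists was made.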

How the data were processed

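RNA of 2 NC and 2 sh-ANP32B samples was sequenced, and the deposited values are TPM, which the authors computed from reads aligned with HISAT2 2.0.5 to hg38, per the submitters' processing notes. The unit was identified from the values, which hold decimals and sum to between 997812 and 998314 per sample. The quantifier, its annotation and any strand setting are not given in the sources used here. TPM keeps no depth, so the precision of counting could not be given.

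Of 18567 Ensembl IDs, 16986 were found in GENCODE v44 (hg38), the source of symbols, gene positions and GC content, while 1581 had no match. All columns were matched to samples by name. The 16817 genes that reached 1 TPM in 2 or more samples were tested on log2(TPM + 1), where changes of low genes are understated. The test was limma 3.58.1 (R 4.3.3) with a variance trend on abundance, on all 4 samples and without a replicate block. Its two-sided p-values were adjusted over these genes (Benjamini-Hochberg). The study used DESeq2, which was not run here because the table holds no counts. Exact permutations of 2 against 2 samples, whose smallest p is 0.333, were left out. The fit was tested on simulated data. Other markers of other cell types are not reported here.

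The members, the gene lists and the tests were chosen with earlier results of these data known. Members named by rule were those called, the 8 lowest and 8 highest fold changes, the 5 highest and 3 lowest levels, MRPS30 and the MRPS18 paralogs, and the 5 largest differences between replicates. From each other list, called genes and the 2 lowest and 2 highest were named by the same rule. Members named beyond these, in the position groups, the pairs and the GC correction, were chosen after their values were seen. Alternatives were other scalings, a pseudocount of 0.1, other filters, GC correction by loess in each sample, a replicate block, no trend, and leaving out each sample. Scripts ran in Python 3.11.15 with numpy 2.4.6, pandas 2.3.3, scipy 1.17.1 and matplotlib 3.10.9.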

Additional observations from a re-analysis of the deposited data

How the results depend on the processing

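Members called lower and higher numbered 0 and 1, against 1.18% and 2.14% of all genes. With GC correction they numbered 14 and 1, against 6.59% and 11.2%. With the replicate block and GC correction they numbered 12 and 1, against 5.07% and 8.43%. They were 0 and 0 with scaling by median ratios, and 0 and 0 without the abundance trend. At an adjusted p under 0.1, 4 were lower, and the share over all genes is not given here. Leaving out 1 sample gave 0 to 23 lower and 0 to 6 higher, with the larger counts when an sh-ANP32B sample was left out, which assumes that the lone sample varies like the others. With the replicate block, 2 members were lower (MRPL24 and MRPS28) and 1 was higher, against 2.92% and 5.84% of all genes. Equal numbers are shared without a stated link, and the deviations of same-numbered samples had a Pearson r of -0.0925 across genes.

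By the criterion of the study, 7 members were lower and 1 higher. The lower count was 17 with scaling by median ratios and 14 without the transcripts of the mitochondrial genome, against 8.95% and 7.56% of all genes. The higher count was 2 with the replicate block, against 13.0%. Both counts also moved when 1 sample was left out.

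Over the whole table, 199 genes were called lower and 360 higher. With scaling by median ratios 288 were lower and 230 higher. The counts were 1017 and 1735 with GC correction, 491 and 982 with the replicate block, 782 and 1301 with both, 0 and 0 without the abundance trend, and from 59 to 1628 and from 214 to 2451 without 1 sample. Without the trend, the adjusted p of ANP32B was 0.093 at a log2 fold change of -3.04.

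The median of the MRPS genes was -0.31 with scaling by median ratios, -0.27 without the transcripts of the mitochondrial genome and -0.30 to -0.18 without 1 sample. The difference between the MRPL and MRPS medians, 0.00 at the precision given, ran from -0.13 to 0.058 without 1 sample.

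Some single genes changed sign. MRPL54 was at -0.072 with scaling by median ratios, -0.031 without the transcripts of the mitochondrial genome, and -0.11 with GC correction, with or without the replicate block. MRPL9 was at -0.067 and -0.023 in the first 2 of these. Without 1 sample, the ranges were -0.77 to 0.029 for MRPS18A, -0.73 to 0.30 for MRPS26, -0.63 to 0.20 for MRPL23, -0.39 to 0.20 for MRPS24, -0.39 to 0.42 for MRPL54, -0.041 to 0.093 for MRPL9, -0.12 to 0.40 for MRPL53, -0.037 to 0.49 for MRPL55, -0.17 to 1.16 for MRPL34 and -0.099 to 1.20 for MRPS18B. With a pseudocount of 0.1 or with either of the other filters, all 29 members named by rule kept their sign and their side of the threshold, and with the replicate block only MRPL24 and MRPS28 crossed it. The cause of these differences was not tested.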
